A study of Homo sapiens with 12 samples.

Results

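The collagen genes are the 44 protein-coding rows of the count table whose symbol reads COL, a number, A and a number. They run from COL1A1 to COL28A1 and make up 44 of 58735 rows. RNA of HEK293 cells, a human embryonic kidney cell line widely used to make viral vectors and proteins, was poly-A selected and sequenced as 12 libraries. The 4 groups of 3 libraries were wild-type cells and cells with EXT1 knocked down (EXT1kd), each grown attached (adherent) or in suspension, all after 5 passages. Adherent cells grew in T75 flasks in DMEM with fetal bovine serum and were lifted with trypsin. For suspension, cells were shaken at 120 rpm in EX-CELL 293, a medium without serum, and all were kept at 37 °C and 5% CO2. Medium, serum, shaking and harvest therefore changed together with the culture and cannot be told apart. The method of the EXT1 knockdown is not stated in the labels, nor whether 1 clone or a pool of cells was used. Since nothing says that replicates were separate cultures, the p-values reflect the spread between these libraries alone, and it may be technical.

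Collagens are extracellular proteins in which chains wind into a triple helix, and each gene encodes 1 chain. Fibrillar collagens pack into cables, type IV collagens form the network of basement membranes, type VI makes beaded filaments, FACITs (fibril-associated collagens with interrupted triple helices) lie on the surface of fibrils, and the transmembrane collagens stay anchored in the plasma membrane. Many trimers mix chains from different genes, so partner chains are commonly read together. Several collagens and collagen receptors bind heparan sulfate, and type XVIII collagen carries heparan sulfate chains. EXT1 is a subunit of the polymerase that builds those chains.

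EXT1 transcripts followed the labels in every library. Its values were 53.2, 53.1 and 51.8 CPM (reads scaled to library size, with TMM) for wild-type adherent and 49.5, 54.6 and 47.9 for wild-type suspension libraries, against 12.5, 11.99 and 11.9 and 15.4, 13.1 and 15.3 in the knockdown libraries of the same cultures. Libraries held 13.9 to 21.4 M reads assigned to genes. The 7 kidney and neural-like markers of HEK293 cells summed to 585 to 798 CPM across the libraries. Of cells that make much collagen, the fibroblast list summed to 57.5 to 71.9 CPM, most of it PDPN at 38.9 to 49.2 CPM. LUM, a proteoglycan of that list, averaged 0.643 CPM in wild-type adherent, 3.30 in knockdown adherent, 10.1 in wild-type suspension and 12.7 in knockdown suspension cells. Its part in the collagen results was not tested. TWIST2, of the same list, measured 5.22 to 11.2 CPM across the libraries. PDGFRA, S100A4 and PDGFRB had 359, 127 and 71 reads over all 12 libraries, and DCN, THY1 and FAP had 21, 22 and 7. The 5 leukocyte markers summed to at most 1.61 CPM and the 6 endothelial markers to at most 3.82 CPM.

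The 6 type IV genes sit in 3 neighbouring pairs, each read outward from a stretch between the 2 genes, so the pairs are the collagens whose expression can be set against shared sequence. COL4A1 (chr13:110148963-110307233, minus strand) and COL4A2 (chr13:110305812-110513209, plus strand) overlap by 1422 bases in the deposited gene spans. COL4A3 (chr2:227164565-227314792, plus strand) and COL4A4 (chr2:227002711-227164453, minus strand) lie 111 bases apart, and COL4A5 (chrX:108439844-108697545, plus strand) and COL4A6 (chrX:108155607-108439497, minus strand) 346 bases apart. The sequences below are from RefSeq on GRCh38.p14, plus strand, and capitals mark the GC box GGGCGG and the CCAAT box, searched on both strands (ATTGG is the CCAAT box on the minus strand). The first runs between the RefSeq start sites of COL4A1 and COL4A2, chr13:110307158-110307283. The next is the gap between the deposited spans of COL4A4 and COL4A3, chr2:227164454-227164564, part of the 418 bases between their RefSeq starts. The last is the 250 bases before the COL4A5 start, chrX:108439588-108439837. COL4A6 has listed starts at chrX:108439458 and chrX:108438422, and its reads may come from either.
COL4A1-COL4A2: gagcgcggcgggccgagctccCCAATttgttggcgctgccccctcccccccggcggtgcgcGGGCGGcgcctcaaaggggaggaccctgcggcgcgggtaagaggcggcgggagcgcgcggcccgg
COL4A4-COL4A3: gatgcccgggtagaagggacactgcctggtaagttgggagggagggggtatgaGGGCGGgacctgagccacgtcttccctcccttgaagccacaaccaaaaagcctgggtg
COL4A6-COL4A5: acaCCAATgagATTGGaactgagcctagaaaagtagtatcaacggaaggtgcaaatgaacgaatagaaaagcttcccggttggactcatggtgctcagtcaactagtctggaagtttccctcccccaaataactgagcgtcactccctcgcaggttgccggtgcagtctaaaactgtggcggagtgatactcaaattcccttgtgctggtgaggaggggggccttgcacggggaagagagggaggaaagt
The COL4A1-COL4A2 stretch is 80.2% G and C with 1 box of each kind, the COL4A4-COL4A3 gap 61.3% with 1 GC box, and the COL4A5 stretch 51.2% with 2 CCAAT boxes and no GC box. The first 2 are 126 and 111 bases long, shorter than the windows of the background. In the 250 bases before the start, COL4A1 held 2 GC boxes (77.6% G and C), COL4A2 1 (78.8%), COL4A3 2 (66.4%) and COL4A4 0 (72.8%). Over 35116 RefSeq promoters, 42.6% held a GC box and 32.0% a CCAAT box in the 250 bases before the start, 10.7% held TATAAA, and the median G and C share was 58%. Of the 32 collagen genes that the promoter table holds, 21 had a GC box, 11 a CCAAT box and 7 TATAAA before at least 1 listed start. Counted as the background was, over their 44 listed starts, 54.5% held a GC box, 27.3% a CCAAT box and 18.2% TATAAA. These matches describe the letters of the window and were not tied to expression.

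Every collagen gene had at least 1 read, and together they took a small share of the libraries. That share was 0.0682 to 0.0836% of reads in wild-type adherent, 0.0804 to 0.0847% in knockdown adherent, 0.150 to 0.155% in wild-type suspension and 0.130 to 0.138% in knockdown suspension libraries. All 6 suspension libraries lay above all 6 adherent ones, and in suspension the knockdown libraries lay below the wild type. Per length, the summed level was 80.2 ± 8.84 FPKM in wild-type adherent, 86.9 ± 1.75 in knockdown adherent, 173 ± 3.06 in wild-type suspension and 139 ± 2.95 in knockdown suspension cells (mean ± SD, n = 3 libraries each; FPKM is reads scaled to gene length and library size). In bulk RNA, fewer cells of one kind and less RNA per cell cannot be told apart.

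On the FPKM scale, which allows genes to be compared, COL6A1, a chain of type VI collagen, and COL2A1, the fibrillar collagen best known from cartilage, had the 2 highest means in every group. COL6A1 stood at 14.2 ± 1.94 FPKM in wild-type adherent, 16.9 ± 0.827 in knockdown adherent, 32.9 ± 1.55 in wild-type suspension and 24.3 ± 0.962 in knockdown suspension cells (mean ± SD, n = 3). COL2A1 stood at 11.7 ± 1.04 FPKM in wild-type adherent, 12.9 ± 0.528 in knockdown adherent, 34.9 ± 1.68 in wild-type suspension and 14.1 ± 0.975 in knockdown suspension cells. Their order did not separate beyond the spread in wild-type suspension, where COL2A1 had the higher mean, and COL6A1 had the higher mean in the other 3 groups. COL4A2 came next in 3 groups, and in wild-type suspension it followed COL6A2. In knockdown suspension cells COL4A2, at 13.4 ± 0.786, and COL14A1, at 13.2 ± 0.445 FPKM, did not separate from COL2A1 beyond the spread. COL4A1, COL14A1, COL6A2, COL18A1, COL4A5, COL4A6 and COL25A1 were among the 11 highest in every group, and no other gene reached 5 FPKM in any group but COL12A1, at 6.90 ± 0.718 FPKM in knockdown suspension cells. COL1A1, the main chain of bone and skin collagen, reached at most 2.76 ± 0.202 FPKM, in knockdown adherent cells.

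**Figure D1:**
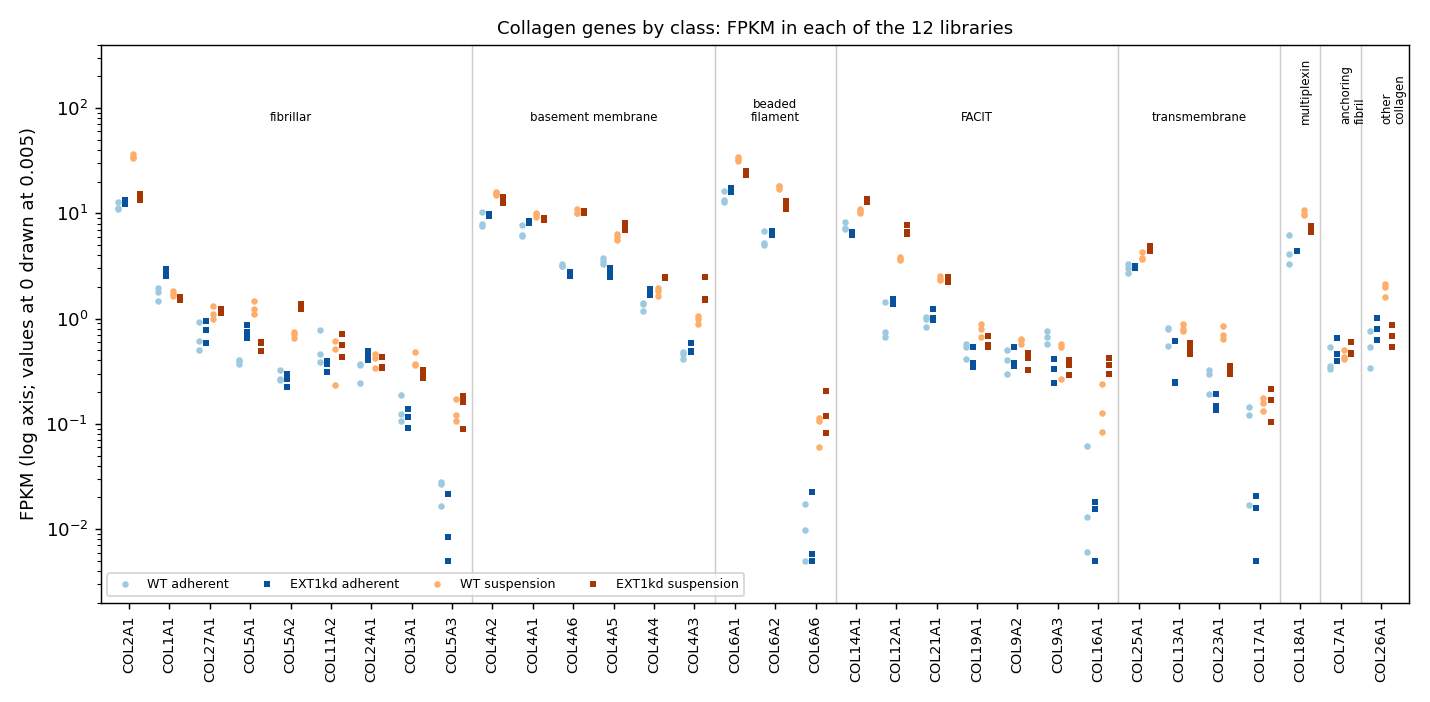
FPKM of the 32 tested collagen genes in each of the 12 libraries on a log axis, ordered by class and by mean level, with circles for wild-type and squares for knockdown libraries. COL6A1 and COL2A1 have the highest means in every group, COL5A3, COL6A6 and COL16A1 lie under 0.1 FPKM in every adherent library, and COL17A1 does so in every knockdown adherent one.

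Basement membrane chains had the highest summed level of the classes in 3 groups, and type VI in wild-type suspension cells. The 6 type IV genes summed to 23.8 ± 2.71 FPKM in wild-type adherent, 25.6 ± 0.402 in knockdown adherent, 44.4 ± 0.814 in wild-type suspension and 44.3 ± 1.06 in knockdown suspension cells (mean ± SD, n = 3). The beaded filament genes of type VI summed to 19.9 ± 2.95 FPKM in wild-type adherent, 23.3 ± 1.03 in knockdown adherent, 50.8 ± 2.01 in wild-type suspension and 36.3 ± 1.91 in knockdown suspension cells. Fibrillar collagens reached 15.8 ± 1.67 FPKM in wild-type adherent, 18.4 ± 0.420 in knockdown adherent, 41.1 ± 1.69 in wild-type suspension and 20.1 ± 0.989 in knockdown suspension cells. The wild-type suspension libraries, at 40.1 to 43.1 FPKM, stood apart from the other 9, at 14.7 to 21.2. Most of each sum was COL2A1 alone, with means of 11.7, 12.9, 34.9 and 14.1 FPKM in the same order of groups. The fibrillar pattern is therefore mainly that of 1 gene. FACITs had another order, with 11.04 ± 0.962 FPKM in wild-type adherent, 10.2 ± 0.408 in knockdown adherent, 18.7 ± 0.668 in wild-type suspension and 24.2 ± 0.761 in knockdown suspension cells, and their highest libraries were those of the knockdown in suspension. Transmembrane collagens summed to 4.09 ± 0.295 FPKM in wild-type adherent, 3.64 ± 0.208 in knockdown adherent, 5.59 ± 0.289 in wild-type suspension and 5.75 ± 0.217 in knockdown suspension cells.

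The remaining 12 members did not pass the filter on low counts and were not tested. COL1A2, the usual partner of COL1A1 in type I collagen, had 2 reads over the 12 libraries and none in 10 of them. COL11A1 had 14 reads, COL9A1 13, COL8A2 18, COL22A1 22, COL28A1 24 and COL8A1 33. COL15A1 had 39 reads, COL6A5 41, COL10A1 46, COL20A1 68 and COL6A3 80. In the test reported here no difference between groups was read for them, but alternatives with another filter or a library left out took some of them in. For culture in wild-type cells, the fit without knockdown adherent replicate 1 found 27 collagens higher in suspension, 24 of which were so with all libraries. Of the tested genes only COL9A2 was added, so some of these low genes were as well. Among the 32 that passed, COL5A3, COL6A6, COL16A1 and COL17A1 passed on their suspension libraries alone, and COL23A1 passed in every group but knockdown adherent. A gene low enough in 1 group to fail the filter there is more readily found to differ from a group in which it passes, so the overall counts are also given over the genes that passed in both groups compared. The lists of genes other than collagens are given without that step.

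Most tested collagens were higher in suspension than in adherent culture. In wild-type cells 24 of 32 rose and none fell, where 55.7% of all 17115 genes tested passed, 27.7% rising and 28% falling (edgeR quasi-likelihood F-test, Benjamini-Hochberg adjusted p under 0.05 over all genes tested, as for every adjusted p here). In knockdown cells 20 rose and 2 fell, where 55.7% of all genes tested passed, 26.8% rising and 29% falling. Log2 fold changes are given as the estimate ± its SE, from 3 libraries against 3. The median log2 fold change over the 32 was 0.97 in wild-type and 0.62 in knockdown cells, beside -0.02 and -0.01 over all genes. Among the 28 collagens that passed the filter in both wild-type groups, 21 rose, and among the 27 that did so in both knockdown groups, 15 rose and 2 fell. The 2 comparisons share no library, and 19 genes rose in both. Among them are COL5A3, COL6A6 and COL16A1, which failed the filter in both adherent groups, and COL23A1, which failed it in knockdown adherent cells. COL2A1, COL4A1, COL5A1, COL19A1 and COL26A1 passed as higher in wild-type cells and not in knockdown cells, and COL17A1 the reverse. The difference between the 2 culture effects is the same interaction as that of the knockdown, and of these genes it passed for all but COL19A1 (adjusted p = 0.718). The groups did not overlap for 26 of the 32 in wild-type cells, where 58.8% of all genes tested did not overlap, and for 24 in knockdown cells, against 63.8%. Both counts include genes that failed the filter in the adherent group.

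**Figure D2:**
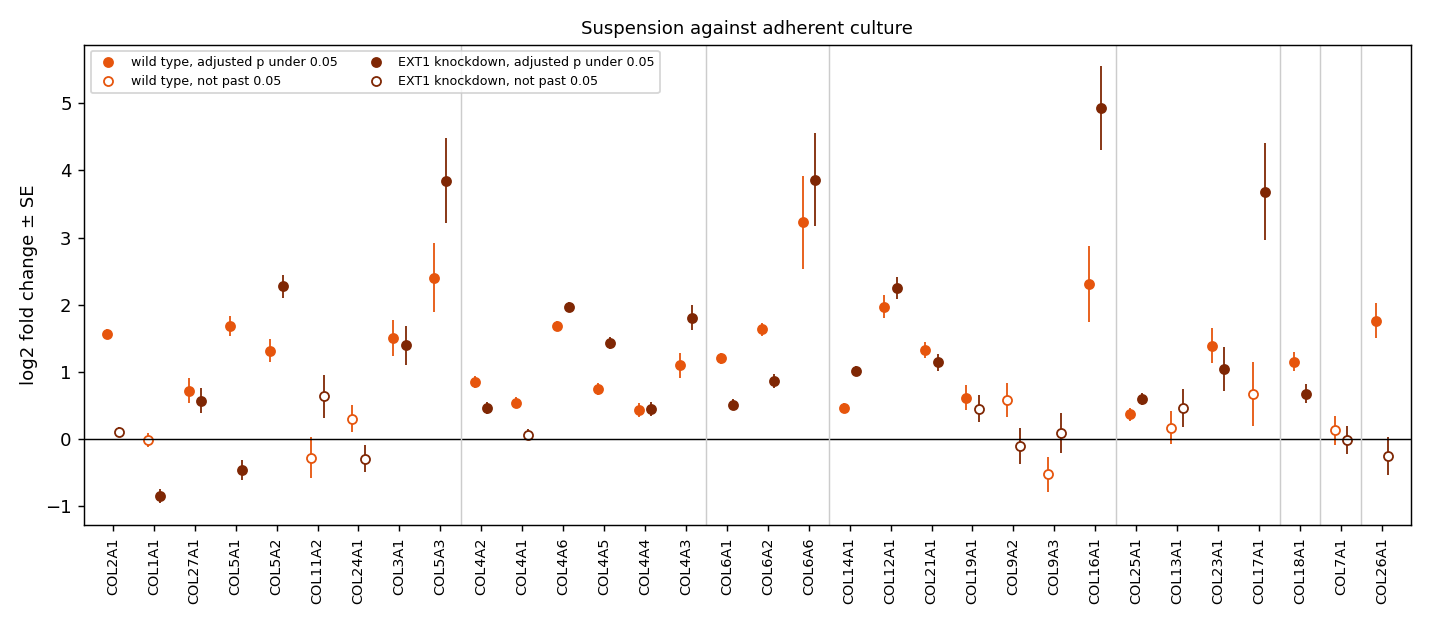
Log2 fold change of suspension over adherent culture with its standard error (SE) for the 32 tested collagen genes, in wild-type (orange) and knockdown cells (dark brown), filled where the adjusted p was under 0.05. All filled orange points lie above 0, and the brown points of COL1A1 and COL5A1 are the only filled ones below it.

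Knockdown of EXT1 moved collagens in both directions. In adherent culture 6 of 32 were higher and 6 lower in knockdown cells, where 27.1% of all genes tested passed, 15.2% higher and 11.8% lower. Among the 27 that passed the filter in both adherent groups, 6 were higher and 5 lower. In suspension 8 were higher and 7 lower, where 20.9% of all genes passed, 8.29% higher and 12.6% lower. The median log2 fold change over the 32 was 0.06 and -0.07, beside -0.01 and 0.00 over all genes. In all, 6 genes passed in both cultures, and COL12A1 and COL4A4 were higher in both. COL5A1 and COL6A1 were higher in adherent and lower in suspension culture, and COL4A5 and COL14A1 the reverse. By class, the knockdown in adherent culture gave 2 higher fibrillar genes, 2 higher and 2 lower type IV genes, 1 higher type VI gene, 1 higher and 2 lower FACITs and 2 lower transmembrane collagens. In suspension it gave 1 higher and 2 lower fibrillar genes, 3 higher type IV genes, 2 lower type VI genes, 3 higher FACITs, 1 higher and 1 lower transmembrane collagen, and lower COL18A1 and COL26A1. The difference between the 2 knockdown effects, tested as an interaction, passed for 12 of 32 collagens, 4 with the higher effect in suspension and 8 with the lower, where 24% of all genes tested passed, 9.45% and 14.6% by direction. It is given as the log2 effect in suspension minus that in adherent culture. The groups did not overlap for 10 of 32 in adherent culture, against 36.1% of all genes tested, and for 21 of 32 in suspension, against 43.8%. The knockdown comparison in suspension and the culture comparison in wild-type cells share the 3 wild-type suspension libraries, so a gene high in those libraries moves both. Likewise each of the other comparisons shares 1 group with its neighbour.

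**Figure D3:**
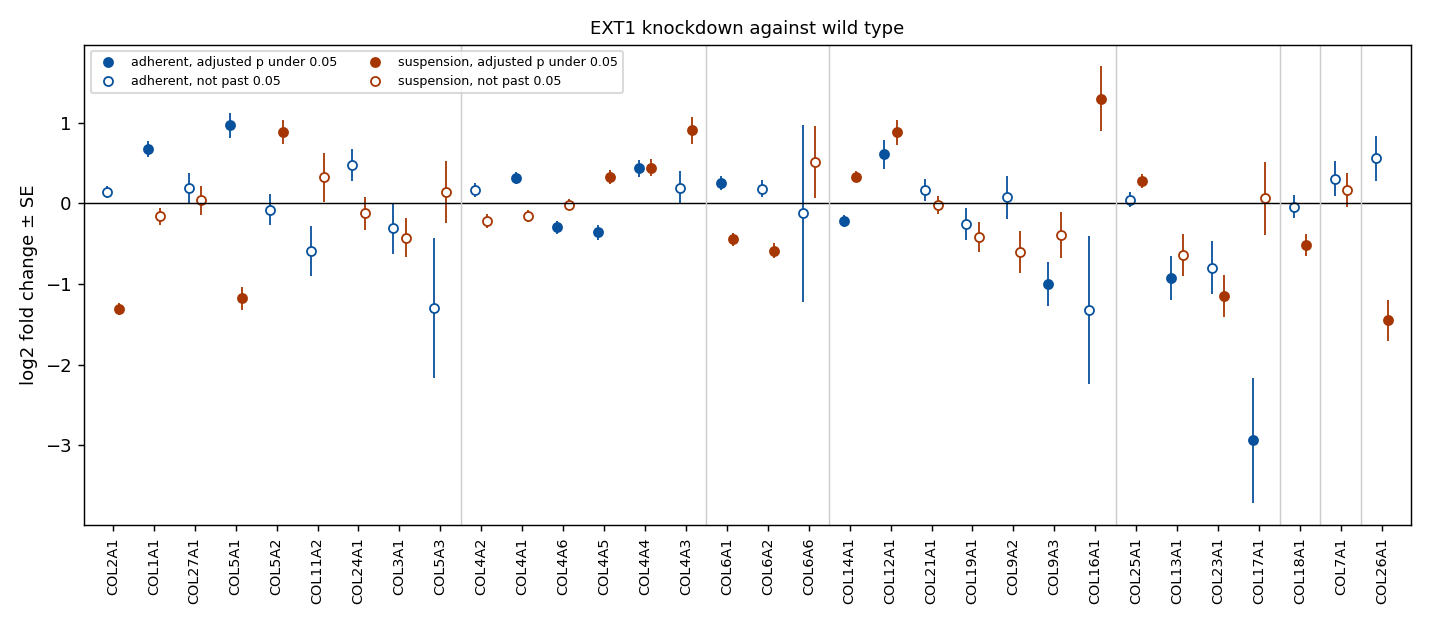
Log2 fold change of EXT1 knockdown over wild type with its SE for the 32 tested collagen genes, in adherent (blue) and suspension culture (brown), filled where the adjusted p was under 0.05. COL5A1 and COL6A1 are filled above 0 in blue and below 0 in brown, COL4A5 and COL14A1 the other way round.

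Among the fibrillar collagens, 6 of 9 tested rose in suspension in wild-type cells, and in knockdown cells 4 rose and 2 fell, COL5A3 being among the rises in both lines. COL2A1 (ENSG00000139219, chr12:47972965-48004554, minus strand) measured 73.3, 76.1 and 86.8 CPM in wild-type adherent libraries, 83.3, 90.3 and 87.8 in the knockdown adherent, 228, 245 and 228 in the wild-type suspension and 92.6, 89.0 and 101 in the knockdown suspension libraries. The wild-type suspension libraries stood far above the other 9, which lay within 73.3 to 101 CPM. It was 2.97-fold higher in suspension in wild-type cells (log2 1.57 ± 0.07, adjusted p = 4.63e-12) and 2.48-fold lower in knockdown than in wild-type suspension cells (log2 -1.31 ± 0.07, adjusted p = 3.96e-10). In knockdown cells the cultures differed by 0.11 ± 0.07 (adjusted p = 0.216), and in adherent culture the lines by 0.14 ± 0.07 (adjusted p = 0.167), neither past the threshold. The latter passed in 2 alternatives (adjusted p = 0.0233 and 0.0452), the first of them without wild-type adherent replicate 3, at 0.22. The former passed in 1 alternative (adjusted p = 0.0385). The interaction was -1.46 ± 0.11 (adjusted p = 1.3e-08).

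Type II collagen is the mark of cartilage cells, so the chondrocyte list is set beside it. SOX9, the transcription factor that drives COL2A1 in cartilage, measured 15.7, 18.4 and 14.7 CPM in wild-type adherent, 15.5, 16.4 and 17.7 in knockdown adherent, 38.6, 34.2 and 34.9 in wild-type suspension and 22.0, 19.6 and 21.3 in knockdown suspension libraries. It too was highest in the wild-type suspension libraries, with 1.15 ± 0.10 for culture in wild-type cells and -0.78 ± 0.10 for the knockdown in suspension (adjusted p = 1.62e-08 and 2.13e-05). The 7 chondrocyte markers summed to 16.2 to 20.9 CPM in wild-type adherent, 18.7 to 21.1 in knockdown adherent, 39.7 to 45.3 in wild-type suspension and 23.7 to 25.5 in knockdown suspension libraries, nearly all of it SOX9 and MATN3, the only 2 that were tested. HAPLN1 and CNMD, which mark differentiated chondrocytes, had 1 and 3 reads in all 12 libraries, and ACAN, the cartilage proteoglycan, had 47. The part of SOX9 in the COL2A1 result was not tested.

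Both main partner chains of type V collagen, which sits inside type I fibrils and sets their width, moved apart. COL5A1 (ENSG00000130635, chr9:134641774-134844843, plus strand) measured 4.43, 4.60 and 4.23 CPM in wild-type adherent libraries, 8.53, 7.38 and 9.92 in the knockdown adherent, 13.8, 16.3 and 12.4 in the wild-type suspension and 6.65, 5.53 and 6.68 in the knockdown suspension libraries. No 2 groups overlapped. The knockdown was 1.958-fold higher in adherent (log2 0.97 ± 0.15, adjusted p = 0.000131) and 2.26-fold lower in suspension culture (log2 -1.18 ± 0.14, adjusted p = 1.4e-05), and the interaction of -2.15 ± 0.21 (adjusted p = 8.18e-07) was the largest of the collagens with over 1 CPM in every group. Genes on chromosome 9 as a whole had a median of 0.28 for the knockdown in adherent and 0.30 in suspension culture. Both knockdown calls and the interaction of COL5A1 held with chromosome medians removed. Suspension was 3.22-fold higher than adherent in wild-type cells (log2 1.69 ± 0.15, adjusted p = 1.82e-08). In knockdown cells it was 1.38-fold lower (log2 -0.46 ± 0.15, adjusted p = 0.013), a call that was lost without knockdown adherent replicate 3 (-0.32, adjusted p = 0.127) or knockdown suspension replicate 2 (-0.38, adjusted p = 0.0672).

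COL5A2 (ENSG00000204262, chr2:189031896-189225312, minus strand) measured 2.43, 1.99 and 1.97 CPM in wild-type adherent libraries, 2.02, 1.68 and 2.28 in the knockdown adherent, 5.60, 5.33 and 4.91 in the wild-type suspension and 9.91, 9.24 and 10.1 in the knockdown suspension libraries. Its highest libraries were those of the knockdown in suspension, and the 2 adherent groups overlapped. Suspension was 2.49-fold higher in wild-type (log2 1.32 ± 0.17, adjusted p = 3.24e-06) and 4.84-fold higher in knockdown cells (log2 2.27 ± 0.17, adjusted p = 1.87e-09). The knockdown was 1.84-fold higher in suspension (log2 0.88 ± 0.15, adjusted p = 0.00041) and differed by -0.08 ± 0.20 in adherent culture (adjusted p = 0.841). The interaction, 0.96 ± 0.25 (adjusted p = 0.00843), had the opposite sign to that of COL5A1. COL5A3, a further type V chain, had 3, 2 and 4 reads in the wild-type adherent, 1, 2 and 0 in the knockdown adherent, 13, 14 and 17 in the wild-type suspension and 9, 18 and 22 in the knockdown suspension libraries. It passed in both culture comparisons, where the ratio of scaled reads was 5.43, with a counting interval of 2.62 to 12.7 (wild type) and 16.2, with a counting interval of 5.22 to 81.2 (knockdown, from 3 reads in adherent cells).

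COL1A1 (ENSG00000108821, chr17:50183289-50201632, minus strand) was the collagen set apart in knockdown adherent cells. It measured 17.6, 14.7 and 19.2 CPM in wild-type adherent libraries, 29.1, 25.2 and 28.1 in the knockdown adherent, 17.1, 17.9 and 16.2 in the wild-type suspension and 15.3, 14.8 and 15.7 in the knockdown suspension libraries. The 3 knockdown adherent libraries lay above the other 9. The knockdown was 1.60-fold higher in adherent culture (log2 0.68 ± 0.10, adjusted p = 9.02e-05), and in knockdown cells suspension was 1.80-fold lower (log2 -0.85 ± 0.10, adjusted p = 1.41e-06). With each library's chromosome medians removed the latter was -0.49 (adjusted p = 0.000306). Wild-type cells differed by -0.01 ± 0.11 between cultures (adjusted p = 0.94), and the interaction was -0.84 ± 0.15 (adjusted p = 0.000495).

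COL3A1, which forms type III collagen of skin and vessels, was low, at 0.728, 0.852 and 1.30 CPM in wild-type adherent libraries, 0.807, 0.9505 and 0.627 in the knockdown adherent, 2.58, 3.28 and 2.49 in the wild-type suspension and 1.90, 2.13 and 2.19 in the knockdown suspension libraries. The suspension libraries lay above the adherent ones in both lines, 2.85-fold in wild-type (log2 1.51 ± 0.27, adjusted p = 8.9e-05) and 2.63-fold in knockdown cells (log2 1.39 ± 0.29, adjusted p = 0.000466). COL27A1, a fibrillar collagen of cartilage, measured 7.10, 8.69 and 13.2 CPM in wild-type adherent libraries, 11.1, 8.33 and 13.6 in the knockdown adherent, 18.5, 13.9 and 15.7 in the wild-type suspension and 16.8, 17.0 and 15.7 in the knockdown suspension libraries. It rose 1.65-fold (log2 0.72 ± 0.19, adjusted p = 0.00292) and 1.48-fold (log2 0.57 ± 0.19, adjusted p = 0.0139), and the latter call was lost without knockdown adherent replicate 2 (0.45, adjusted p = 0.0543). Without wild-type adherent replicate 3, its highest adherent wild-type library, the knockdown in adherent culture passed at 0.49 (adjusted p = 0.0412), against 0.19 ± 0.19 with it. Genes on chromosome 9, where COL27A1 lies, had a median of 0.28 in that comparison with all libraries. COL24A1 and COL11A2, chains of bone and cartilage fibrils, passed in no comparison. COL24A1 ran from 2.37 to 4.85 CPM and COL11A2 from 1.58 to 5.33 CPM over the 12 libraries. Their log2 fold changes in the 4 comparisons of groups ran from -0.30 to 0.48 and from -0.59 to 0.63. With chromosome medians removed COL11A2 passed for suspension in knockdown cells (0.81, adjusted p = 0.0448, against 0.0969).

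**Figure D4:**
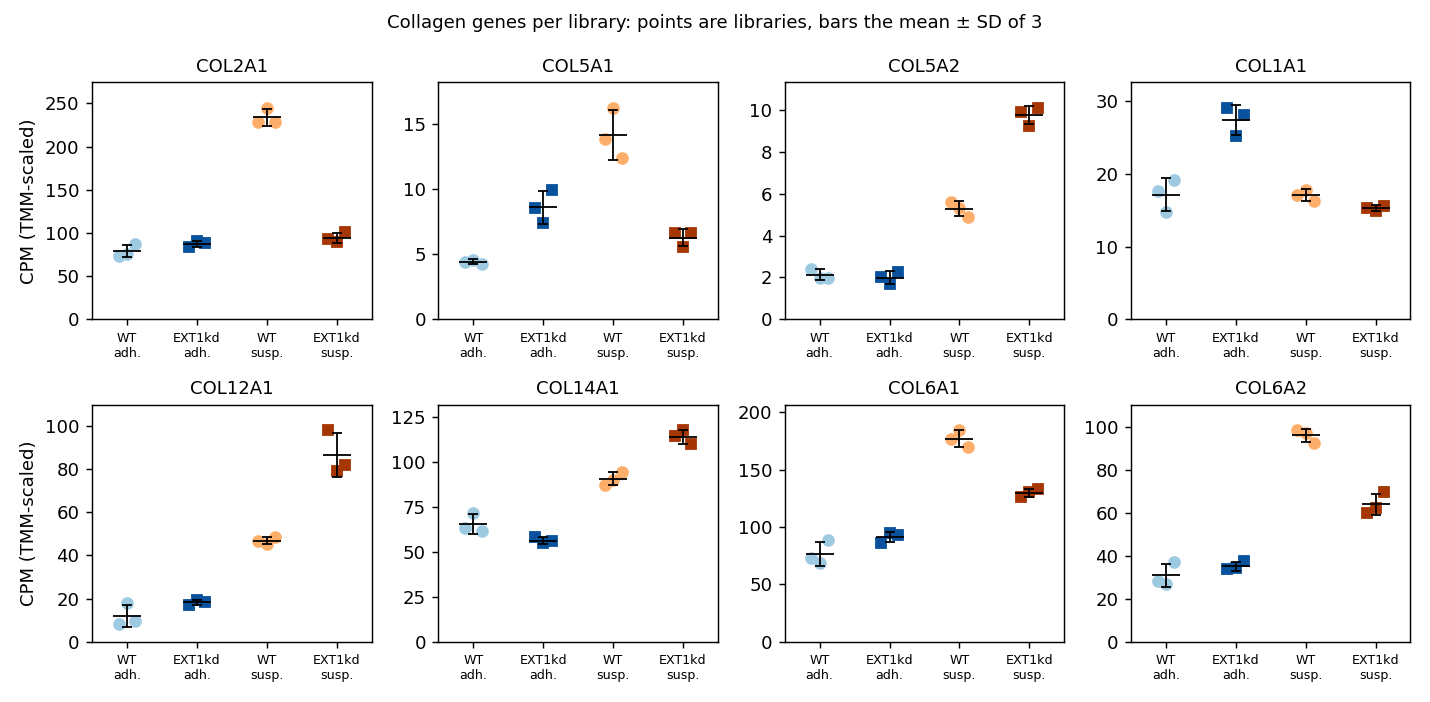
TMM-scaled CPM of 8 collagen genes in each library (points), with the mean and SD of the 3 libraries of a group (bars); vertical axes start at 0. COL2A1, COL5A1, COL6A1 and COL6A2 are highest in wild-type suspension, COL5A2, COL12A1 and COL14A1 in knockdown suspension, and COL1A1 in knockdown adherent libraries.

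All 6 type IV genes rose in suspension in wild-type cells, and all but COL4A1 in knockdown cells. COL4A1 and COL4A2, the chains present in nearly every basement membrane, were the most abundant pair. COL4A1 measured 91.6, 92.6 and 115 CPM in wild-type adherent libraries, 127, 120.5 and 126 in the knockdown adherent, 152, 145 and 138 in the wild-type suspension and 129, 129 and 132 in the knockdown suspension libraries. Every group lay above the wild-type adherent libraries, the highest of which was 115 CPM. Suspension was 1.45-fold higher in wild-type cells (log2 0.54 ± 0.08, adjusted p = 1.07e-05) and differed by 0.07 ± 0.08 in knockdown cells (adjusted p = 0.501). The knockdown was 1.25-fold higher in adherent culture (log2 0.32 ± 0.08, adjusted p = 0.00557). Genes on chromosome 13 as a whole had a median of 0.17 in that comparison, and with chromosome medians removed COL4A1 was at 0.13 (adjusted p = 0.394). Its interaction of -0.48 ± 0.11 (adjusted p = 0.00429) was likewise -0.19 (adjusted p = 0.388) after that step. The culture difference in knockdown cells passed with that step, at 0.38 (adjusted p = 0.00306). In suspension the knockdown was at -0.16 ± 0.08 (adjusted p = 0.161), which passed without wild-type adherent replicate 3 (adjusted p = 0.0371).

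COL4A2 measured 154, 147 and 199.97 CPM in wild-type adherent libraries, 182, 190.2 and 189.5 in the knockdown adherent, 306, 309 and 287 in the wild-type suspension and 248, 256 and 272 in the knockdown suspension libraries. Suspension was 1.80-fold higher in wild-type (log2 0.85 ± 0.09, adjusted p = 1.84e-07) and 1.38-fold higher in knockdown cells (log2 0.47 ± 0.09, adjusted p = 0.00017), with no overlap between cultures in either line. With chromosome medians removed the latter log2 fold change was 0.78. Neither knockdown comparison passed, at 0.16 ± 0.09 in adherent and -0.21 ± 0.09 in suspension culture (adjusted p = 0.184 and 0.0887). Without wild-type adherent replicate 3, at 199.97 CPM the highest of its group, both passed, at 0.31 and -0.22 (adjusted p = 0.000987 and 0.0071), and the latter also without wild-type adherent replicate 2 (adjusted p = 0.0313). The interaction, -0.38 ± 0.12 (adjusted p = 0.0327), was lost when any of 9 libraries was left out, namely wild-type adherent 1 and 2, all 3 knockdown adherent, and replicates 1 and 2 of both suspension groups (-0.39 to -0.29, adjusted p = 0.051 to 0.0883), and with chromosome medians removed (-0.09, adjusted p = 0.746). The reads of COL4A1 and COL4A2 in their overlap cannot be told apart, since the strand setting of the counting is not given in the sources used here.

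COL4A5 and COL4A6, the pair on the X chromosome found together in the basement membranes of smooth muscle and other tissues, were both higher in suspension in both lines. COL4A6 measured 29.8, 29.6 and 30.9 CPM in wild-type adherent libraries, 23.7, 23.7 and 26.1 in the knockdown adherent, 95.2, 93.2 and 103 in the wild-type suspension and 97.9, 92.9 and 96.5 in the knockdown suspension libraries. Suspension was 3.21-fold higher in wild-type (log2 1.68 ± 0.07, adjusted p = 1.18e-12) and 3.91-fold higher in knockdown cells (log2 1.97 ± 0.07, adjusted p = 1.64e-13), and the suspension groups overlapped each other. COL4A5 measured 39.7, 42.3 and 45.5 CPM in wild-type adherent libraries, 36.2, 30.0 and 33.2 in the knockdown adherent, 75.7, 66.5 and 71.9 in the wild-type suspension and 97.7, 82.1 and 88.5 in the knockdown suspension libraries, and no 2 groups overlapped. Its suspension levels were 1.68-fold higher in wild-type and 2.69-fold higher in knockdown cells (0.75 ± 0.09 and 1.43 ± 0.09 on the log2 scale, adjusted p = 9.32e-07 and 2.14e-10).

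In adherent culture the knockdown was lower for both genes of the pair, at -0.36 ± 0.09 for COL4A5 and -0.30 ± 0.08 for COL4A6 (log2, adjusted p = 0.00675 and 0.00713). Genes on the X chromosome had a median of -0.12 there, and with chromosome medians removed the values were -0.24 (adjusted p = 0.0814) and -0.18 (adjusted p = 0.112). In suspension COL4A5 was 1.25-fold higher in knockdown cells (log2 0.33 ± 0.09, adjusted p = 0.0114), a call lost without wild-type suspension replicate 2 or knockdown suspension replicate 1 (adjusted p = 0.0747 and 0.0512). The interaction passed for COL4A5, at 0.68 ± 0.13 (adjusted p = 0.000678), and not for COL4A6, at 0.28 ± 0.10 (adjusted p = 0.0544). The latter passed without wild-type adherent replicate 2 or knockdown adherent replicate 3 (adjusted p = 0.0364 and 0.0468).

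COL4A3 and COL4A4, which with COL4A5 form the network of the mature glomerulus, were the least abundant pair. COL4A4 measured 12.1, 13.97 and 14.4 CPM in wild-type adherent libraries, 17.0, 18.2 and 19.7 in the knockdown adherent, 19.8, 18.5 and 16.5 in the wild-type suspension and 25.5, 25.1 and 24.2 in the knockdown suspension libraries. It rose by nearly the same amount in every comparison, 0.44 ± 0.10 for the knockdown in adherent and 0.45 ± 0.10 in suspension culture, and 0.44 ± 0.10 for suspension in wild-type and 0.44 ± 0.10 in knockdown cells (log2, adjusted p = 0.004, 0.00388, 0.00145 and 0.000938). Its interaction was 0.01 ± 0.15 (adjusted p = 0.978). COL4A3 measured 3.82, 4.26 and 4.47 CPM in wild-type adherent libraries, 5.36, 4.53 and 4.50 in the knockdown adherent, 9.75, 8.96 and 8.15 in the wild-type suspension and 23.2, 14.05 and 13.5 in the knockdown suspension libraries. Knockdown suspension replicate 1 stood well above the other 2 of its group. Suspension was 2.14-fold higher in wild-type (log2 1.10 ± 0.19, adjusted p = 8.5e-05) and 3.496-fold higher in knockdown cells (log2 1.81 ± 0.18, adjusted p = 1.3e-07). The knockdown was 1.88-fold higher in suspension (log2 0.91 ± 0.17, adjusted p = 0.00106). The interaction missed the threshold at 0.71 ± 0.27 (adjusted p = 0.0611), and passed without knockdown suspension replicate 2 or 3 (adjusted p = 0.0416 and 0.0272). An antisense gene over COL4A3, AC097662.1, had 252 reads beside its 1723, which the counting may not separate.

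Partner chains are made into the same trimers, so their ratios per length were read in each library, as a description without a test. COL4A1 to COL4A2 was 0.754 to 0.824 in wild-type adherent, 0.829 to 0.909 in knockdown adherent, 0.617 to 0.650 in wild-type suspension and 0.636 to 0.682 in knockdown suspension libraries. All adherent libraries had the higher ratio. COL4A3 to COL4A4 was 0.337 to 0.350, 0.252 to 0.348, 0.535 to 0.545 and 0.614 to 1.004 in the same order of groups, and COL4A5 to COL4A6 was 1.04 to 1.15, 0.990 to 1.20, 0.548 to 0.622 and 0.692 to 0.781. The former was higher and the latter lower in every suspension library than in any adherent one. So none of the 3 neighbouring pairs kept 1 ratio in the 2 cultures. Reads were not split by start site, and COL4A6 has more than 1 listed start. COL6A1 to COL6A2 was 2.41 to 2.59, 2.52 to 2.79, 1.81 to 1.91 and 1.93 to 2.12, again lower in all suspension libraries. COL5A1 to COL5A2 was 1.22 to 1.54, 2.82 to 2.93, 1.65 to 2.03 and 0.399 to 0.447, the widest range of the 5 pairs.

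**Figure D5:**
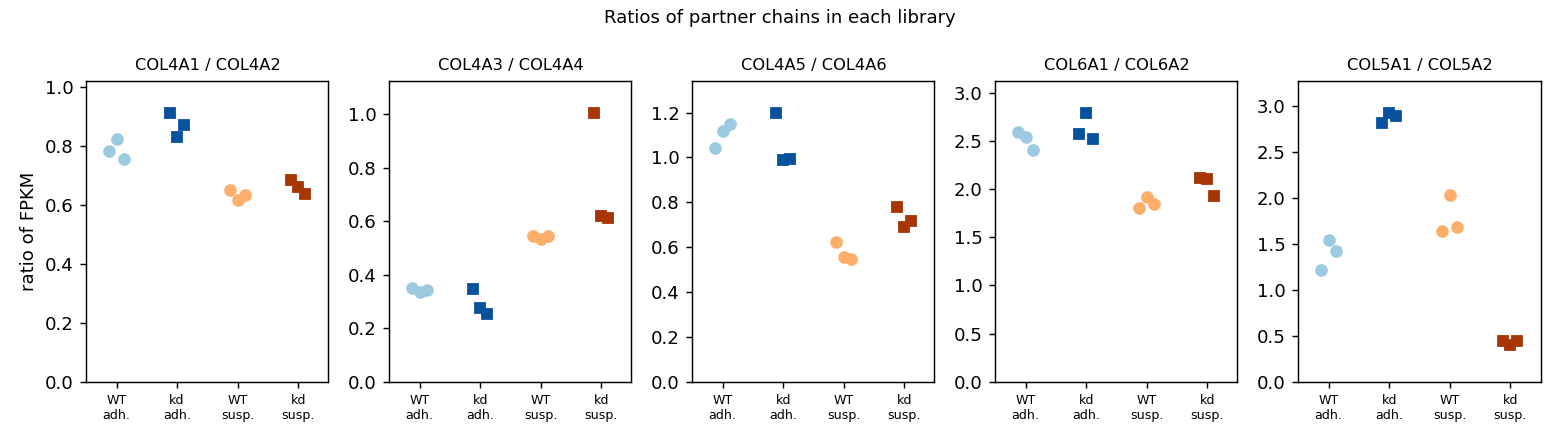
Ratio of the FPKM values of 5 pairs of partner chains in each library, with vertical axes from 0. COL5A1 exceeds COL5A2 in every group but the knockdown in suspension, where the 3 libraries lie at 0.399 to 0.447.

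Type VI collagen needs COL6A1, COL6A2 and a long chain such as COL6A3, and of these COL6A3 had 80 reads in all. COL6A1 (ENSG00000142156, chr21:45981737-46005050, plus strand) measured 72.8, 68.4 and 88.6 CPM in wild-type adherent libraries, 86.1, 94.5 and 93.5 in the knockdown adherent, 177, 184 and 169 in the wild-type suspension and 126, 130.3 and 133 in the knockdown suspension libraries. COL6A2 (ENSG00000142173, chr21:46098097-46132849, plus strand), its neighbour on chromosome 21, measured 28.3, 27.1 and 37.1 CPM in wild-type adherent libraries, 33.7, 34.1 and 37.4 in the knockdown adherent, 98.4, 97.1 and 92.5 in the wild-type suspension and 60.0, 62.3 and 69.4 in the knockdown suspension libraries. Both were highest in wild-type and next in knockdown suspension libraries, and their adherent groups overlapped. Suspension was 2.31-fold and 3.10-fold higher in wild-type cells (1.21 ± 0.08 and 1.63 ± 0.10, adjusted p = 6.4e-10 and 1.59e-10), and 1.42-fold and 1.82-fold higher in knockdown cells (0.51 ± 0.08 and 0.87 ± 0.10, adjusted p = 3.19e-05 and 6.74e-07). In suspension the knockdown was lower, at -0.44 ± 0.08 for COL6A1 and -0.59 ± 0.10 for COL6A2 (adjusted p = 0.000725 and 0.00032).

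In adherent culture the knockdown passed for COL6A1 (log2 0.25 ± 0.08, adjusted p = 0.0295) and not for COL6A2 (log2 0.18 ± 0.10, adjusted p = 0.21). Both results turned on single libraries. The COL6A1 call was lost without wild-type adherent replicate 1 or 2 or knockdown adherent replicate 2 or 3 (0.17 to 0.23, adjusted p = 0.0953 to 0.115), and COL6A2 passed without wild-type adherent replicate 3 (0.34, adjusted p = 0.00501). The interactions were -0.70 ± 0.12 and -0.77 ± 0.14 (adjusted p = 0.000277 and 0.000682). COL6A6, a long chain, had 0, 3 and 2 reads in wild-type adherent, 1, 3 and 0 in knockdown adherent, 20, 10 and 15 in wild-type suspension and 30, 19 and 14 in knockdown suspension libraries. It passed in both culture comparisons, with ratios of scaled reads of 10.005, with a counting interval of 3.98 to 32.3 (wild type) and 15.6, with a counting interval of 5.80 to 59.1 (knockdown).

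Of the 7 FACITs tested, 5 rose in suspension in wild-type and 4 in knockdown cells, COL16A1 among them in both lines. COL12A1, which binds type I fibrils in tendon and other loaded tissues, measured 8.43, 18.0 and 9.46 CPM in wild-type adherent libraries, 17.2, 19.2 and 18.3 in the knockdown adherent, 46.7, 45.3 and 48.5 in the wild-type suspension and 98.1, 79.3 and 81.9 in the knockdown suspension libraries. The suspension groups lay far above the adherent ones and apart from each other. Suspension was 3.92-fold higher in wild-type (log2 1.97 ± 0.17, adjusted p = 2.21e-08) and 4.74-fold higher in knockdown cells (log2 2.25 ± 0.17, adjusted p = 2e-09). The knockdown was 1.85-fold higher in suspension (log2 0.88 ± 0.16, adjusted p = 0.00055). In adherent culture it was 1.52-fold higher (log2 0.61 ± 0.18, adjusted p = 0.0192), with overlapping groups, since wild-type adherent replicate 2 reached 18.0 CPM beside 8.43 and 9.46. The log2 fold change was 1.02 without that library, and the call was lost without wild-type adherent replicate 1 (0.42, adjusted p = 0.107) or 3 (0.45, adjusted p = 0.077), without knockdown adherent replicate 2 (adjusted p = 0.0531) and by DESeq2 (adjusted p = 0.0616).

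COL14A1, a relative of COL12A1 on type I fibrils, was the most abundant FACIT, at 63.5, 71.7 and 61.5 CPM in wild-type adherent libraries, 58.3, 54.8 and 56.0 in the knockdown adherent, 87.5, 89.97 and 94.7 in the wild-type suspension and 114, 118 and 110.2 in the knockdown suspension libraries. No 2 groups overlapped. Suspension was 1.38-fold higher in wild-type (log2 0.47 ± 0.07, adjusted p = 1.97e-05) and 2.02-fold higher in knockdown cells (log2 1.02 ± 0.07, adjusted p = 1.08e-09). The knockdown was 1.26-fold higher in suspension (log2 0.33 ± 0.07, adjusted p = 0.0027), and the interaction was 0.55 ± 0.10 (adjusted p = 0.000735). In adherent culture it was 1.16-fold lower (log2 -0.22 ± 0.07, adjusted p = 0.0337), a call lost when wild-type adherent replicate 2, wild-type suspension replicate 2 or any knockdown adherent library was left out (adjusted p = 0.0502 to 0.106). With chromosome medians removed it was -0.36 (adjusted p = 0.000902).

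COL21A1, a FACIT of vessel walls, measured 5.95, 7.44 and 7.11 CPM in wild-type adherent libraries, 8.87, 6.87 and 7.24 in the knockdown adherent, 16.6, 16.9 and 18.2 in the wild-type suspension and 17.9, 15.9 and 17.2 in the knockdown suspension libraries. Suspension was 2.51-fold higher in wild-type (log2 1.33 ± 0.12, adjusted p = 4.29e-08) and 2.21-fold higher in knockdown cells (log2 1.14 ± 0.12, adjusted p = 2.74e-07), and the lines overlapped within each culture. COL16A1 passed the filter on its suspension libraries alone, with 2, 1 and 12 reads in wild-type adherent, 0, 2 and 3 in knockdown adherent, 14, 20 and 32 in wild-type suspension and 50, 45 and 70 in knockdown suspension libraries. Its ratio of scaled reads between cultures was 4.89, with a counting interval of 2.76 to 9.23 in wild-type and 32.7, with a counting interval of 13.7 to 102 in knockdown cells. Without wild-type adherent replicate 3, which holds most of that group's reads, the fitted change in wild-type cells was 3.83, against 2.30 with it. The knockdown in suspension passed (log2 1.30 ± 0.40, adjusted p = 0.0273), and was lost without wild-type suspension replicate 1 or 2 or knockdown suspension replicate 1 or 3 (adjusted p = 0.0567 to 0.128). The interaction missed the threshold at 2.62 ± 1.00 (adjusted p = 0.0637) and passed without wild-type adherent replicate 2 or wild-type suspension replicate 3 (adjusted p = 0.0202 and 0.032).

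COL19A1 measured 4.67, 3.58 and 4.90 CPM in wild-type adherent libraries, 4.67, 3.00 and 3.31 in the knockdown adherent, 6.89, 5.74 and 7.60 in the wild-type suspension and 5.90, 4.74 and 4.54 in the knockdown suspension libraries. It rose 1.53-fold in suspension in wild-type cells (log2 0.61 ± 0.19, adjusted p = 0.00965) and was at 0.45 ± 0.20 in knockdown cells (adjusted p = 0.062), which passed without knockdown adherent replicate 1 or wild-type adherent replicate 2 (adjusted p = 0.0108 and 0.0467). LMBRD1 overlaps it on the other strand with 9307 reads beside its 999. Of the type IX chains, which lie on cartilage fibrils of type II collagen, COL9A3 measured 3.28, 2.78 and 3.70 CPM in wild-type adherent libraries, 1.21, 1.61 and 2.05 in the knockdown adherent, 2.63, 2.75 and 1.31 in the wild-type suspension and 1.42, 1.76 and 1.963 in the knockdown suspension libraries. It was 2.00-fold lower in knockdown adherent cells (log2 -1.001 ± 0.27, adjusted p = 0.0105), and the call was lost without knockdown adherent replicate 1 (-0.82, adjusted p = 0.0638). TCFL5 overlaps COL9A3 on the other strand with 7140 reads beside its 457. COL9A2 ran from 1.27 to 2.69 CPM and passed in no comparison. Suspension in wild-type cells came nearest (log2 0.58 ± 0.25, adjusted p = 0.0577), and passed without wild-type adherent replicate 3, knockdown adherent replicate 1 or knockdown suspension replicate 1 (adjusted p = 0.0255 to 0.0486).

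The 4 transmembrane collagens were all tested, and 2 rose in suspension in wild-type and 3 in knockdown cells. Of the 3, COL25A1 alone passed the filter on low counts in both knockdown groups, COL17A1 and COL23A1 failing it in knockdown adherent cells. COL25A1, a neuronal collagen also found in amyloid plaques, was by far the highest, at 24.1, 29.0 and 26.5 CPM in wild-type adherent libraries, 27.8, 27.0 and 27.6 in the knockdown adherent, 32.7, 32.5 and 37.5 in the wild-type suspension and 43.8, 42.4 and 38.4 in the knockdown suspension libraries. Suspension was 1.29-fold higher in wild-type (log2 0.36 ± 0.09, adjusted p = 0.00197) and 1.51-fold higher in knockdown cells (log2 0.60 ± 0.09, adjusted p = 1.5e-05). The knockdown was 1.21-fold higher in suspension (log2 0.28 ± 0.09, adjusted p = 0.0311), which was lost without replicate 1 or 2 of either suspension group (adjusted p = 0.0911 to 0.137). COL23A1 measured 0.728, 1.14 and 1.25 CPM in wild-type adherent libraries, 0.519, 0.731 and 0.570 in the knockdown adherent, 3.25, 2.40 and 2.63 in the wild-type suspension and 1.15, 1.34 and 1.23 in the knockdown suspension libraries. It was 2.62-fold higher in suspension in wild-type (log2 1.39 ± 0.26, adjusted p = 0.000187) and 2.06-fold higher in knockdown cells (log2 1.04 ± 0.33, adjusted p = 0.0107), and 2.22-fold lower in knockdown than in wild-type suspension cells (log2 -1.15 ± 0.26, adjusted p = 0.00433). Without wild-type adherent replicate 1 the knockdown in adherent culture also passed (-0.99, adjusted p = 0.0432), against -0.80 ± 0.33 with it.

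COL13A1, a collagen of cell adhesions and the neuromuscular junction, measured 4.85, 3.29 and 4.75 CPM in wild-type adherent libraries, 1.498, 1.46 and 3.71 in the knockdown adherent, 4.59, 5.21 and 4.70 in the wild-type suspension and 2.78, 3.10 and 3.42 in the knockdown suspension libraries. The knockdown adherent group split, with replicate 3 far above the other 2. It was 1.90-fold lower in knockdown adherent cells (log2 -0.93 ± 0.27, adjusted p = 0.0164). The log2 fold change was -1.54 without replicate 3, and the call was lost without knockdown adherent replicate 1 or 2 or wild-type adherent replicate 1 (adjusted p = 0.0585 to 0.0963). Leaving out knockdown adherent replicate 3 also gave a rise in suspension in knockdown cells (1.10, adjusted p = 0.00181) and a lower level of the knockdown in suspension (-0.63, adjusted p = 0.0306), neither of which passed with all libraries (0.46 ± 0.29 and -0.63 ± 0.26). COL17A1, the collagen of hemidesmosomes, had 2, 18 and 18 reads in wild-type adherent, 0, 2 and 2 in knockdown adherent, 20, 16 and 18 in wild-type suspension and 23, 12 and 21 in knockdown suspension libraries. The ratio of wild type to knockdown in adherent culture was 8.40, with a counting interval of 3.03 to 32.4 (log2 -2.94 ± 0.78, adjusted p = 0.00848), though wild-type adherent replicate 1 had as few reads as the knockdown libraries. The ratio of suspension to adherent in knockdown cells was 13.9, with a counting interval of 5.13 to 52.7. The interaction, 3.01 ± 0.92 (adjusted p = 0.0229), was lost without knockdown adherent replicate 1 (2.42, adjusted p = 0.0751) and by limma-voom (adjusted p = 0.0617).

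COL18A1, the multiplexin of basement membranes and precursor of endostatin, measured 35.4, 28.1 and 53.2 CPM in wild-type adherent libraries, 37.7, 38.0 and 38.2 in the knockdown adherent, 91.9, 84.6 and 83.4 in the wild-type suspension and 57.6, 60.4 and 63.6 in the knockdown suspension libraries. The suspension libraries lay above the adherent ones, and the wild-type adherent libraries were widely spread. Suspension was 2.22-fold higher in wild-type (log2 1.15 ± 0.14, adjusted p = 1.5e-06) and 1.59-fold higher in knockdown cells (log2 0.67 ± 0.14, adjusted p = 0.000553). In suspension the knockdown was 1.43-fold lower (log2 -0.52 ± 0.14, adjusted p = 0.0123), a call lost without wild-type suspension replicate 1 or knockdown suspension replicate 1 (adjusted p = 0.0526 and 0.053). In adherent culture it differed by -0.04 ± 0.15 (adjusted p = 0.871), but without wild-type adherent replicate 3, at 53.2 CPM, the knockdown was higher by 0.26 (adjusted p = 0.0406), and the interaction passed at -0.77 (adjusted p = 7.77e-05) against -0.48 ± 0.20 with it. SLC19A1, which overlaps COL18A1 on the other strand, had 22590 reads beside its 11297, and their reads cannot be told apart where they overlap.

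COL26A1 measured 1.70, 1.08 and 2.45 CPM in wild-type adherent libraries, 2.02, 2.56 and 3.25 in the knockdown adherent, 6.33, 5.03 and 6.70 in the wild-type suspension and 2.78, 1.70 and 2.13 in the knockdown suspension libraries. As with COL2A1, the wild-type suspension libraries stood above all others. Suspension was 3.39-fold higher in wild-type cells (log2 1.76 ± 0.26, adjusted p = 1.18e-05), the knockdown was 2.74-fold lower in suspension (log2 -1.45 ± 0.26, adjusted p = 0.000546), and the interaction was -2.01 ± 0.38 (adjusted p = 0.000839). In adherent culture the knockdown was at 0.56 ± 0.28 (adjusted p = 0.151), and passed without wild-type adherent replicate 3 (0.91, adjusted p = 0.0289). COL7A1, which forms the anchoring fibrils of skin, ran from 3.69 to 7.35 CPM, overlapped between all groups and passed in no comparison. Its log2 fold changes ran from -0.15 for the interaction to 0.31 for the knockdown in adherent culture.

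Collagen chains are hydroxylated and folded in the endoplasmic reticulum, and all 18 genes listed for these steps were tested. In adherent culture 6 (33.3%) were higher and none lower in knockdown cells, and in suspension 2 were higher and 5 lower (38.9% in all). Over all genes tested 27.1% and 20.9% passed in these 2 comparisons, 15.2% and 8.29% higher and 11.8% and 12.6% lower, and the lists that follow are read against the same shares. SERPINH1, the collagen chaperone HSP47, measured 89.1, 82.9 and 102 CPM in wild-type adherent, 116, 119.8 and 118 in knockdown adherent, 157, 172 and 161 in wild-type suspension and 123, 126 and 139 in knockdown suspension libraries. The knockdown was higher in adherent (0.37 ± 0.08, adjusted p = 0.00158) and lower in suspension culture (-0.34 ± 0.08, adjusted p = 0.00379), and suspension was higher in wild-type cells (0.84 ± 0.08, adjusted p = 3.31e-08). Genes on chromosome 11, where SERPINH1 lies, had medians of 0.29, -0.23 and 0.13 in these comparisons, in the same order. How much of the SERPINH1 differences is shared with the chromosome was not tested. Between cultures 7 of the 18 rose and 7 fell in wild-type (77.8% in all), and 6 rose and 6 fell in knockdown cells (66.7%), where over all genes 55.7% passed in each line, 27.7% and 26.8% rising and 28% and 29% falling. P4HA2, a catalytic subunit of prolyl 4-hydroxylase, rose by 1.03 and 0.98 in the 2 lines (adjusted p = 4.86e-09 and 8.86e-09), while P4HB, the other subunit of that enzyme, fell, with -0.31 and -0.85 (adjusted p = 0.00129 and 1.47e-08). PLOD2, a lysyl hydroxylase, fell in suspension in knockdown cells, at -0.98 ± 0.10 (adjusted p = 8.12e-08). Genes on chromosome 3, where PLOD2 lies, had a median of -0.31 in that comparison. Those on chromosome 17, where P4HB lies, had medians of -0.12 in wild-type and -0.36 in knockdown cells for culture. The interaction passed for 9 (50%), against 24% of all genes tested, 9.45% positive and 14.6% negative. Of the 9, 8 were negative, PLOD3 the most so at -0.86 ± 0.13 (adjusted p = 0.000115). The genes that move procollagen out of the endoplasmic reticulum were all tested as well. Of these 11, 3 rose and 3 fell in suspension in wild-type and 4 rose and 7 fell in knockdown cells, and the knockdown gave 3 higher in adherent, and 1 higher and 3 lower in suspension culture. The share that passed was near that of all genes for culture in wild-type cells (54.5%) and for the knockdown in adherent culture (27.3%), so neither count stands apart. CREB3L1, a transcription factor for secretory genes, was higher by 1.22 ± 0.33 in adherent and lower, at -1.21 ± 0.38, in suspension culture (adjusted p = 0.00929 and 0.0291).

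Outside the cell, procollagen is trimmed and cross-linked, and 13 of 14 listed genes were tested. In suspension 7 rose and 2 fell in wild-type and 6 rose and 6 fell in knockdown cells. The knockdown gave 6 higher and 2 lower in adherent culture, and 5 lower and none higher in suspension. The shares that passed were 69.2% and 92.3% for culture and 61.5% and 38.5% for the knockdown. PXDN, the peroxidase that cross-links type IV collagen, rose in suspension by 2.55 ± 0.07 in wild-type and 1.01 ± 0.07 in knockdown cells, and the knockdown was higher by 1.23 ± 0.07 in adherent and lower, at -0.31 ± 0.07, in suspension culture (adjusted p = 8.31e-15, 7.29e-10, 1.13e-09 and 0.00338). LOXL2, a lysyl oxidase active on the same collagen, was higher in suspension in wild-type cells (1.09 ± 0.16, adjusted p = 1.29e-05) and lower in knockdown cells (-0.502 ± 0.15, adjusted p = 0.00945), with an interaction of -1.59 ± 0.22 (adjusted p = 5.46e-05). TLL1, a relative of the procollagen C-proteinase BMP1, was lower in the knockdown in both cultures (-0.90 and -1.84, adjusted p = 0.0095 and 0.000402). Of the 9 listed proteins that bind and organise fibrils, 5 were tested. SPARC, which binds collagen, measured 12.5, 13.1 and 12.7 CPM in wild-type adherent, 24.1, 24.0 and 25.9 in knockdown adherent, 70.4, 74.7 and 68.5 in wild-type suspension and 11.7, 11.7 and 14.02 in knockdown suspension libraries. Its wild-type suspension libraries lay far above the others, and the interaction was -3.46 ± 0.13 (adjusted p = 5.94e-13). LUM, counted here as well as among the fibroblast markers, rose in suspension by 3.96 ± 0.21 in wild-type and 1.94 ± 0.16 in knockdown cells. FN1 fell, at -0.54 ± 0.08 and -1.03 ± 0.08 (adjusted p = 1.81e-11, 7.39e-09, 1.95e-05 and 5.55e-09). In this list 3 rose and 1 fell in suspension in wild-type and 3 rose and 2 fell in knockdown cells, and the knockdown gave 3 higher and 1 lower in adherent and 2 lower in suspension culture (80% and 100% for culture, 80% and 40% for the knockdown).

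The basement membrane partners of type IV collagen were all tested, and 7 of 8 rose in suspension in wild-type cells and none fell. In knockdown cells 5 rose and 2 fell. HSPG2, which encodes perlecan, a heparan sulfate proteoglycan, rose by 1.31 and 1.28 in the 2 lines (adjusted p = 2.34e-07 and 3.15e-07). NID1, the nidogen that links laminin to type IV collagen, rose by 1.15 and 0.18 (adjusted p = 4.08e-11 and 0.0234). LAMA1, a laminin chain, rose in wild-type (0.93 ± 0.08, adjusted p = 3.19e-08) and fell in knockdown cells (-0.66 ± 0.08, adjusted p = 1.45e-06). The knockdown gave 5 higher in adherent culture, led by LAMA1 at 1.53 ± 0.08, and 1 lower in suspension, NID2 at -0.88 ± 0.08 (adjusted p = 3.29e-10 and 6.46e-07). Genes on chromosome 18, where LAMA1 lies, had a median of 0.20 in the former comparison and -0.19 for the interaction. Those on chromosome 14, where NID2 lies, had a median of -0.36 in the latter and -0.38 for the interaction. The interaction passed for 6 (75%), all negative, against 24% of all genes tested, 14.6% negative. The shares that passed were 87.5% for culture in each line, and 62.5% in adherent and 12.5% in suspension culture for the knockdown, the last below that of all genes.

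Of 11 listed collagen receptors, 9 were tested, and in suspension 7 rose in wild-type and 4 in knockdown cells, with none falling. GP6 is among the rises in both lines on only 10 reads in wild-type and 12 in knockdown adherent cells (adjusted p = 0.0106 and 0.0486). DDR2, a receptor kinase for fibrillar collagens, rose by 2.20 ± 0.13 and 3.29 ± 0.14 (adjusted p = 8.54e-11 and 8.21e-13). MRC2, which takes up collagen for breakdown, rose by 2.85 ± 0.17 and 1.43 ± 0.16 (adjusted p = 1.14e-10 and 3.73e-07). ITGB1, the beta chain shared by the collagen-binding integrins, rose by 0.20 ± 0.07 in wild-type cells (adjusted p = 0.0285) and was at 0.01 ± 0.07 in knockdown cells (adjusted p = 0.899). The knockdown gave 2 higher and 1 lower receptor in adherent culture, where DDR2 was at -0.69 ± 0.17 and MRC2 at 1.07 ± 0.19 (adjusted p = 0.00409 and 0.000374), and 1 higher and 1 lower in suspension. The shares that passed were 77.8% and 44.4% for culture in wild-type and knockdown cells, the latter below that of all genes, and 33.3% and 22.2% for the knockdown, near it. Of 14 genes listed for collagen breakdown, 10 were tested. In suspension 6 rose and 1 fell in wild-type and 6 rose and 2 fell in knockdown cells (70% and 80% in all). The list also holds TIMP1, TIMP2 and TIMP3, which inhibit these proteases, and they were 3 of the 6 rises in each line, with 1.07, 0.95 and 1.32 in wild-type and 0.97, 0.78 and 1.51 in knockdown cells (adjusted p at most 1.85e-07). MMP14, a membrane-bound collagenase, rose by 2.17 and 2.19 and MMP2, the gelatinase it activates, by 2.04 and 2.37 (adjusted p = 3.54e-09, 6.72e-09, 3.37e-06 and 5.56e-06). The knockdown gave 3 higher and 4 lower in adherent culture and 1 lower, MMP2 at -0.75 ± 0.24 (adjusted p = 0.0328), in suspension. That is 70% and 10% of the 10 tested, the latter below the 20.9% of all genes.

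Read as medians over the tested members, the log2 change for suspension in wild-type cells was -0.01 for hydroxylation and folding, -0.05 for export, 0.74 for trimming and cross-linking, 0.97 for fibril organisers, 0.94 for basement membrane partners, 0.62 for receptors and 0.90 for breakdown, beside -0.02 over all genes. In knockdown cells the same medians were 0.07, -0.29, -0.14, 0.54, 0.21, 0.57 and 0.90, in that order. For the knockdown they were 0.15, 0.17, 0.19, 0.33, 0.31, 0.17 and -0.16 in adherent culture, and -0.09, -0.01, -0.34, -0.16, -0.02, 0.06 and -0.19 in suspension.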

How the data were processed

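Poly-A RNA of 12 HEK293 libraries in 4 groups of 3 was analysed from 2 deposited tables. The first is the authors' count table, with raw whole-number counts for each gene as deposited, and the submitters' processing notes name GRCh38, HISAT2 and featureCounts 1.5.0. The deposited FPKM values are those counts per kilobase of gene and library size, per the file headers and their values. Neither the annotation release nor the strand setting is given in the sources at hand, and the labels describe stranded and unstranded library making, so overlapping genes may share reads. Totals were 13.9 to 21.4 M reads per library. Counting intervals are exact 95% intervals, cover counting error only and treat reads as independent.

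Genes passed edgeR's filterByExpr by group (17115 genes, 99.9% of reads). The test was that of edgeR 4.0.16 (R 4.3.3), with TMM scaling, 1 mean per group over all 12 libraries, the quasi-likelihood F-test and Benjamini-Hochberg adjustment over all genes tested at 0.05. The contrasts were the knockdown within each culture, the culture within each line and their interaction. SE is the log2 fold change divided by the root of F. The procedure was tested on simulated data. Alternatives used limma 3.58.1, DESeq2 1.42.0, other scalings and filters, FPKM with pseudocounts of 1 and 0.1, the 6 libraries compared, a replicate block, chromosome medians removed and each library left out in turn. Chromosome medians were taken over genes with a mean of at least 5 CPM.

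All 44 members are accounted for. Values are given for members that passed in at least 1 contrast, led their class in FPKM or share a pair with a member that passed. Members under 1 CPM in every group are given by reads. Of the other lists, counts are given with up to 3 of the members that passed with the largest change per contrast, and SERPINH1, P4HB, ITGB1 and EXT1. COL6A6, COL16A1 and COL17A1, whose means pass 1 CPM in suspension groups alone, are given by reads too. Members, lists and tests were chosen with earlier results of these data known. Class assignments follow textbook classes of collagens. Promoter sequences came from RefSeq on GRCh38.p14. Protein sequences were not used here.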

Additional observations from a re-analysis of the deposited data

Results flagged for a closer look

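The knockdown effect differed between the 2 cultures for 12 of the 32 tested collagen genes, by the interaction term of edgeR's quasi-likelihood fit (effect in suspension minus effect in adherent culture, log2). It was negative for the fibrillar chains COL5A1 (-2.15), COL2A1 (-1.46) and COL1A1 (-0.84), and positive for COL5A2 (0.96), the partner of COL5A1. In the type VI chains COL6A2 and COL6A1 it was -0.77 and -0.70. COL26A1 stood at -2.01. For type IV chains it was -0.48 for COL4A1, -0.38 for COL4A2 and 0.68 for COL4A5. The FACIT COL14A1 stood at 0.55 and the transmembrane COL17A1 at 3.01, the latter on 4 reads in knockdown adherent cells. With chromosome medians removed the differences of COL4A1 (-0.19, adjusted p = 0.388) and COL4A2 (-0.09, adjusted p = 0.746) were lost, that of COL4A2 also when any of 9 libraries was left out. COL17A1 was lost without knockdown adherent replicate 1 (2.42, adjusted p = 0.0751) and by limma-voom (adjusted p = 0.0617), and both COL4A2 and COL17A1 on the FPKM scale. All other tested collagens missed the threshold for this term. Groups of 3 libraries were not tested for outlying libraries. Read counts differed most between the wild-type adherent libraries, with a chi-square per degree of freedom of 11.8 to 26.5 between pairs. In the other groups it was 2.63 to 11.2.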

How the results depend on the processing

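The number of collagens called stayed within 1.5 times of that reported in all 5 contrasts, under 11 alternatives and with each of 12 libraries left out in turn. The fit to 6 libraries was not run for the interaction, which needs all groups. Over the alternatives the counts were 8 to 12 for the knockdown in adherent culture, 13 to 18 in suspension, 24 to 26 for culture in wild-type, 21 to 25 in knockdown cells and 11 to 16 for the interaction. With 1 library left out they were 8 to 17, 12 to 18, 24 to 27, 22 to 24 and 10 to 13. The 17 came without wild-type adherent replicate 3, and the 8 without knockdown adherent replicate 2. Under every alternative, left-out libraries included, 3 of 12 calls held for the knockdown in adherent culture (COL1A1, COL4A4 and COL5A1), 11 of 15 in suspension, 24 of 24 for culture in wild-type, 20 of 22 in knockdown cells and 9 of 12 for the interaction. Over single genes, contrasts and alternatives, 67 values lost the call, 57 gained one and 78 of 3644 changed sign, 77 of them past the threshold in neither setting. The remaining one, COL18A1 in adherent culture, turned to 0.26 and passed without wild-type adherent replicate 3, and leaving out 1 library gave -0.23 to 0.26. The cause was not tested. On the FPKM scale, fold changes of low genes shrank by construction of the pseudocount. Over all genes, the calls for the knockdown were 3067 with only the 6 adherent libraries, against 4633, and in suspension 5361 with 6 libraries and 2381 with chromosome medians removed, against 3577.

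Replicate numbers are shared between groups in the titles, but same-numbered libraries did not deviate together. Their correlations ran from -0.155 to 0.146 over 18 pairs, 1 of them over 0.1, and those of other numbers from -0.165 to 0.164. With the replicate block the counts were 12, 15, 24, 23 and 14. COL19A1 for culture in knockdown cells (0.47) and the interactions of COL4A3 (0.71) and COL16A1 (2.63) then passed, and no call was lost. Depth limits the 12 untested genes and those with few adherent reads, such as COL5A3, COL6A6, COL16A1 and COL17A1.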

Other observations

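COL3A1 and COL5A2 lie 19149 bases apart on chromosome 2 and are read in opposite directions. Their FPKM ratio, COL3A1 to COL5A2, was 0.328 to 0.721 in wild-type adherent, 0.301 to 0.618 in knockdown adherent, 0.503 to 0.673 in wild-type suspension and 0.210 to 0.252 in knockdown suspension libraries. The knockdown suspension libraries lay below the other 9. COL9A2 to COL9A3, chains of type IX collagen, was 0.446 to 0.703, 0.861 to 2.19, 1.001 to 2.36 and 0.787 to 1.64 in the same order of groups, with the wild-type adherent libraries below the other 9. COL1A1 had 3885 reads over the 12 libraries beside the 2 of COL1A2.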
